A study of Homo sapiens with 4 samples.

Results

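The 6 aldo-keto reductase genes AKR1A1, AKR1B1, AKR1B10, AKR1C1, AKR1C2 and AKR1C3 and OSGIN1 were examined in pancreatic cancer cells treated with cannabichromene (CBC), a phytocannabinoid of hemp. The 7 genes were taken by symbol from the 58233 Ensembl genes of the count table, and all 7 were found there. mRNA was sequenced from 4 libraries: MIA PaCa-2 cells given PBS, MIA PaCa-2 cells given 35 μM CBC, PANC-1 cells given PBS and PANC-1 cells given 30 μM CBC, each labelled wild type and collected at 24 h. Both are long-established lines from human pancreatic tumours, and the doses are those of the study's methods. The methods name acetonitrile as the solvent of CBC and call the controls vehicle controls, while the sample records name PBS for them, so whether the controls held the solvent is not settled by these sources. Each condition had 1 library, and a difference inside 1 line therefore rests on a single pair of libraries.

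Aldo-keto reductases are soluble enzymes that use NADPH to reduce aldehydes and ketones to alcohols, and they take part in the detoxification of reactive carbonyls, including those from lipid peroxidation, and in steroid and prostaglandin metabolism. Several of their genes, AKR1B10 and the AKR1C genes among them, are known targets of NRF2, a transcription factor activated by oxidants and electrophiles. OSGIN1 encodes oxidative stress induced growth inhibitor 1, which is also known as an NRF2 target and as a restraint on growth.

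The CBC library held more OSGIN1 mRNA than the control in both lines, 5.04-fold in MIA PaCa-2 and 8.52-fold in PANC-1. In bulk RNA, fewer cells that express a gene and less RNA per cell cannot be told apart. AKR1C1 was 3.42-fold higher after CBC treatment in MIA PaCa-2, where it was the most abundant of the 7 genes, and was almost without counts in PANC-1. AKR1A1 and AKR1B1 were expressed in both lines at 31.4 to 91.7 CPM (counts scaled to library size after TMM normalisation) and were higher in the CBC library of each line, by less than 2-fold. AKR1C2 was low and AKR1C3 very low in MIA PaCa-2, and AKR1B10 was very low in PANC-1. In the plot of levels by library, the genes present in both lines are AKR1A1, AKR1B1 and OSGIN1.

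**Figure D1:**
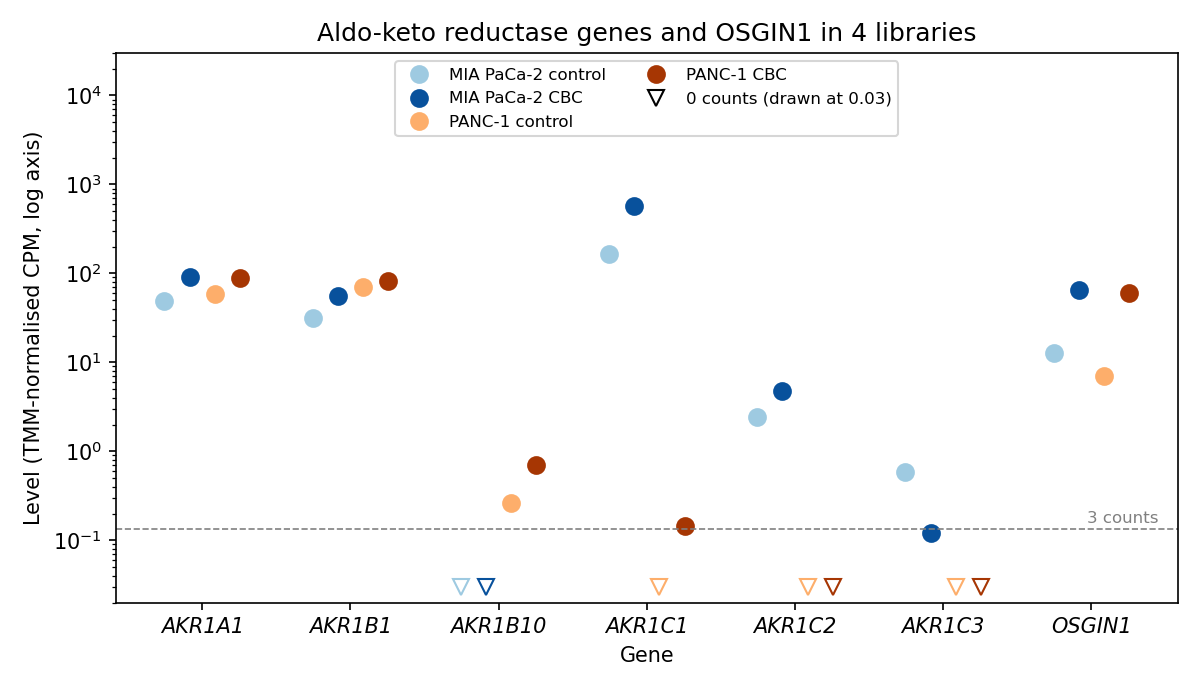
Level of each of the 7 genes in the 4 libraries, in CPM after TMM normalisation on a log axis, with 1 point per library and no error bar since each condition had 1 library. Open triangles are libraries with 0 counts, and the dashed line is 0.135 CPM, the highest level that 3 counts stand for in any library. The AKR1C genes are found in MIA PaCa-2, where AKR1C1 reached 573 CPM after CBC treatment, while OSGIN1 is higher in both CBC libraries than in both controls.

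The libraries held 21742775 to 27903667 counts on genes, at which 3 counts, the limit that a count of 0 allows, correspond to 0.11 to 0.135 CPM. Intervals and limits cover counting error only. Mitochondrial genes took 5.81% of the counts in the MIA PaCa-2 control and 3.86% after CBC treatment, and 4.63% and 2.42% in PANC-1. Of 8 markers of pancreatic ductal epithelium, 5 and 6 reached 1 CPM in the MIA PaCa-2 libraries and all 8 in both PANC-1 libraries. CDH1 had 0 counts in both MIA PaCa-2 libraries and EPCAM 0 and 1. The hepatocyte markers ALB, APOA1 and TTR had at most 1 count in any library, and of 4 leukocyte markers PTPRC and CD3E were at 0 in every library. The other two were CD14, with 123 and 18 counts without and with CBC in MIA PaCa-2 and 32 and 2 in PANC-1, and CD68, with 1 and 9 and with 12 and 22. Their summed level was 5.58 and 1.09 CPM in MIA PaCa-2 and 1.94 and 0.878 CPM in PANC-1. The summed level of 4 mesenchymal markers was 3421 and 3313 CPM in MIA PaCa-2 and 4436 and 4476 CPM in PANC-1 without and with CBC, mostly VIM. Of the other mesenchymal markers, CDH2 had 0 counts in both MIA PaCa-2 libraries and FN1 at most 5 counts in any library. The summed level of 4 fibroblast markers was 368 CPM in the MIA PaCa-2 control and 96.1 CPM after CBC treatment. In PANC-1 it was 136 and 47.1 CPM, and DCN was at 0 in every library. Nearly all of the sum was COL1A2 in MIA PaCa-2, with 8174 and 2348 counts, and COL1A1 in PANC-1, with 3037 and 1268. In MIA PaCa-2 COL1A1 had 11 and 13 counts and PDGFRB 0 and 15. In PANC-1 COL1A2 had 0 and 1 and PDGFRB 54 and 18. The part of these shifts in the results below was not tested.

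OSGIN1 (ENSG00000140961) lies on chromosome 16 of GRCh38 from 83931311 to 83966332 on the forward strand. Its counts were 284 in the MIA PaCa-2 control and 1592 after CBC treatment, and 159 in the PANC-1 control and 1628 after CBC treatment. In normalised level this was 12.8 and 64.4 CPM in MIA PaCa-2 and 6.99 and 59.6 CPM in PANC-1. Both CBC libraries lay above both controls. The share of all genes with libraries in such an order was not counted, here or for the genes below.

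The log2 fold change of OSGIN1 was 2.33 in MIA PaCa-2, with a 95% counting interval from 2.15 to 2.52, and 3.08 in PANC-1, with an interval from 2.86 to 3.33. It ranked 348 from the highest among the 14001 genes tested in MIA PaCa-2 and 63 among the 14091 tested in PANC-1. The increase was larger in PANC-1 by 0.75 on the log2 scale. From the count ratios, without the prior count that the log2 fold changes include, the difference was 0.76, with a counting interval from 0.46 to 1.05. This difference was not tested across cultures. With the 2 lines as the only replication, edgeR's quasi-likelihood test put the change of OSGIN1 at 2.71 on the log2 scale (standard error 0.29, adjusted p = 0.00658), with an increase in both lines. An exon of MLYCD overlaps OSGIN1 on the same strand, and MLYCD had 165 and 237 counts in MIA PaCa-2 and 90 and 153 in PANC-1 without and with CBC.

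Because OSGIN1 was past the threshold of 1 in each line, its promoter window is shown, from 250 bases before to 50 bases after the start (RefSeq, GRCh38.p14, chr16:83952990-83953289, forward strand). This start lies inside the span given above for the gene, and the bases before the first base of that span were not searched. The capitals mark TGANTCA, the TPA response element bound by AP-1 factors, found as TGACTCA starting 97 bases before the start.
OSGIN1: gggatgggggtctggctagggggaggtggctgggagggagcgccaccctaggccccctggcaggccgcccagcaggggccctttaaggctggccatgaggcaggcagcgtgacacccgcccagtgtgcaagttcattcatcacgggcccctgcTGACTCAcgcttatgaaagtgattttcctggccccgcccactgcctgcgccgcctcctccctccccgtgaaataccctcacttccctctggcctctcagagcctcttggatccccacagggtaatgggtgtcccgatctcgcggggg

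The pattern TGANTCA, searched on both strands, was held by 7.71% of 35116 promoter windows of this length, and TGACNNNGC, the core of the antioxidant response element, by 13.3%. The 2 patterns can overlap. RefSeq windows were matched for 6 of the 7 genes, 8 windows in all, and not for AKR1B10. OSGIN1 held the first pattern once and not the second, and the other 7 windows held neither, which says only that these letters are not in these windows.

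The AKR1C genes lie side by side on chromosome 10. AKR1C1 (ENSG00000187134) runs from 4963253 to 4983283 on the forward strand, AKR1C2 (ENSG00000151632) from 4987775 to 5018031 on the reverse strand and AKR1C3 (ENSG00000196139) from 5035354 to 5107686 on the forward strand. Their enzymes reduce steroids among other carbonyls: AKR1C1 is known to inactivate progesterone, AKR1C2 to reduce dihydrotestosterone, and AKR1C3 to form testosterone and prostaglandin F. The genes are close copies, and the counting of reads could split them. Over 969 coding bases without the stop codon, AKR1C1 differed from AKR1C2 at 19 positions (98.0% identity) and from AKR1C3 at 83 (91.4% identity). The stretch from coding base 63 to 162, as long as 1 sequencing read, is shown because it held the most differences between AKR1C1 and AKR1C2. Capitals in AKR1C1 mark bases that differ from AKR1C2, and capitals in the other lines mark bases that differ from AKR1C1 (GENCODE 44 transcripts).
AKR1C1: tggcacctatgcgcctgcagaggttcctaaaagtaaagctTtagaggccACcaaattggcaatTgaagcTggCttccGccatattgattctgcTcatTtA
AKR1C2: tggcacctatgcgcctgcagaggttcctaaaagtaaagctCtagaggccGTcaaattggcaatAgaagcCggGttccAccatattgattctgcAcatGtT
AKR1C3: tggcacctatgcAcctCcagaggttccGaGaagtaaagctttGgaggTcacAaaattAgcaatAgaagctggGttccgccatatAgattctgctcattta

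The stretch from coding base 827 to 926 lies within the longest run without a difference between AKR1C1 and AKR1C2, 186 coding bases from 784 to 969. A read from here can come from either gene, while AKR1C3 differs at 13 bases.
AKR1C1: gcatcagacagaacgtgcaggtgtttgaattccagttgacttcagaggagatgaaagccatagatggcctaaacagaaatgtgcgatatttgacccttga
AKR1C2: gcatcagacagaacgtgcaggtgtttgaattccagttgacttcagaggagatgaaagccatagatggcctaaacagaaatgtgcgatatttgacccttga
AKR1C3: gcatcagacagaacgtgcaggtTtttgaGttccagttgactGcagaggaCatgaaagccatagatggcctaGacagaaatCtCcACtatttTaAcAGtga

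Windows of 100 bases were compared with all other GENCODE 44 transcripts, as a measure of read sharing. The reads were sequenced in pairs, and the windows take no account of the second read of a pair. In AKR1C1, 180 of 870 coding windows (20.7%) occurred in another gene, and in AKR1C2 230 of 870 (26.4%). The share was 9.77% in AKR1C3 and 0.69% in AKR1C4, and over whole transcripts 815 of 6444 windows of AKR1C1 were shared, 799 of them with AKR1C2. No window of AKR1A1, AKR1B1 or OSGIN1 occurred in another gene, and 30 of 849 coding windows of AKR1B10 did. In the map of shared coding windows, the last windows of AKR1C1 and AKR1C2 were shared.

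**Figure D2:**
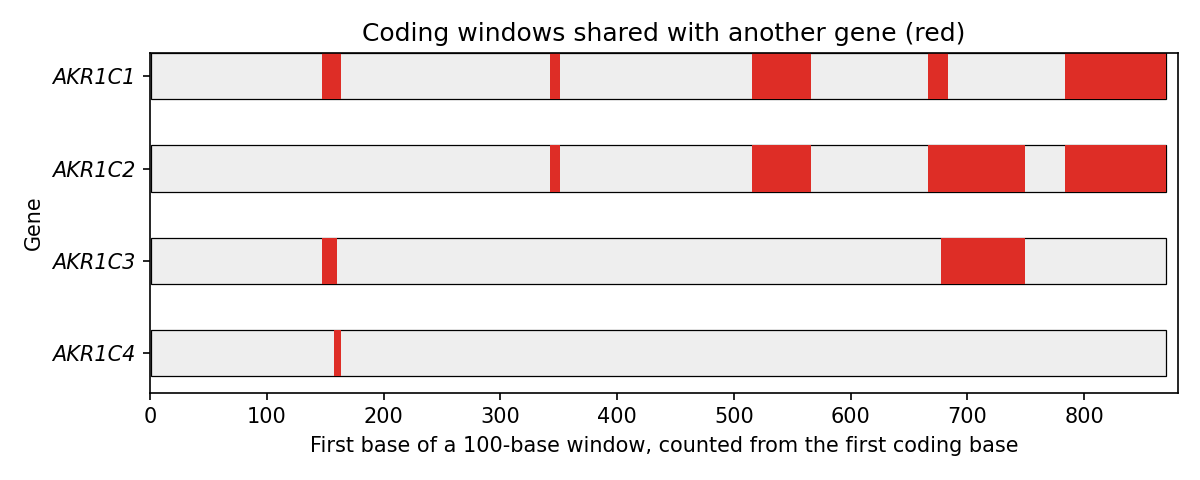
Position of 100-base windows in the coding sequences of 4 AKR1C genes, each bar running from the first to the last of 870 windows and the x axis giving the first base of a window counted from the first coding base. Red marks windows also found in a transcript of another gene, 180 in AKR1C1, 230 in AKR1C2, 85 in AKR1C3 and 6 in AKR1C4.

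AKR1C1 had 3723 counts in the MIA PaCa-2 control and 14182 after CBC treatment. PANC-1 had 0 counts as control and 4 with CBC. Both MIA PaCa-2 libraries were thus far above both PANC-1 libraries. In MIA PaCa-2 the level went from 167 to 573 CPM, which moved AKR1C1 from rank 1241 to rank 162 among all genes by CPM. Its log2 fold change was 1.78, with a counting interval from 1.72 to 1.83. The 4 counts of the PANC-1 CBC library were too few for a direction, since the interval of the count ratio against the control began at 0.549-fold and had no upper end. In the test across both lines AKR1C1 had a log2 fold change of 1.87 (standard error 0.32, adjusted p = 0.0227, edgeR). Nearly all counts behind that value are from MIA PaCa-2, so it gives no second line in which the increase was seen.

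AKR1C2 had 54 counts in the MIA PaCa-2 control, 119 after CBC treatment and 0 in both PANC-1 libraries. The count ratio in MIA PaCa-2 was 1.98, with an interval from 1.42 to 2.79. The log2 fold change of 0.96 was not past the threshold of 1, though it was 1.03 with library totals in place of TMM, and the adjusted p across both lines was 0.487. AKR1C2 made up 1.42% of the AKR1C counts in the MIA PaCa-2 control, with an exact binomial interval from 1.07% to 1.86%, and 0.832% after CBC treatment, with an interval from 0.690% to 0.995%. AKR1C1 made up 98.2% and 99.1% in the same libraries. The part of shared AKR1C1 reads in the AKR1C2 counts was not tested.

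AKR1C3 had 13 counts in the MIA PaCa-2 control, 3 after CBC treatment and 0 in both PANC-1 libraries. It was below 1 CPM in all 4 libraries, so no direction was called. Its count ratio of 0.207 had an interval from 0.0379 to 0.755. With the counts of all 8 AKR1C genes and pseudogenes summed, MIA PaCa-2 had 3790 counts without and 14307 with CBC. The log2 fold change of the sum was 1.76, with an interval from 1.71 to 1.81. AKR1C1 made up 98.2% and 99.1% of the sum, so the value could hardly depart from that of AKR1C1. Shared reads that were not counted for any gene are not in the sum, and their part was not tested.

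The promoter windows of AKR1C1 and AKR1C2 are shown because the genes differed so much in counts while the windows are near copies, with 288 of 292 aligned bases identical. Capitals mark bases that differ between the windows or that only AKR1C1 holds (RefSeq, GRCh38.p14, chr10:4963165-4963464, forward strand, for AKR1C1 and chr10:5003808-5004107, reverse strand, for AKR1C2).
AKR1C1: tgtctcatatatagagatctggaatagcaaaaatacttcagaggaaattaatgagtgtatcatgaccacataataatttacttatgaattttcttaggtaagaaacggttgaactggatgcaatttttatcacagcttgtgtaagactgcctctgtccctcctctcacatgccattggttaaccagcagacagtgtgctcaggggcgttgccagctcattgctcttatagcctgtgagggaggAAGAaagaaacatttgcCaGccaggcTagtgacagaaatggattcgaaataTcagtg
AKR1C2: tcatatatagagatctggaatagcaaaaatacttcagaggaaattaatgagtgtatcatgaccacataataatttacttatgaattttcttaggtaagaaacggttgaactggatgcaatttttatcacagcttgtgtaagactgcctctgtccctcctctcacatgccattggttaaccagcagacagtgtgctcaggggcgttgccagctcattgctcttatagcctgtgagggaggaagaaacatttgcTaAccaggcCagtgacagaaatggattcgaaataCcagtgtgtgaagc

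The 4 differing bases and the 4 bases that AKR1C1 holds alone all lie in the last part of the windows. The AKR1C2 window lies inside the span given above for the gene, and the bases beyond that span were not compared. Of the 2 AKR1C3 windows, the one at chr10:5048531-5048830 aligned to that of AKR1C1 over 291 bases with 77.3% identity.

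AKR1A1 encodes aldehyde reductase, which acts on many aldehydes and sugar acids. The gene (ENSG00000117448) lies on chromosome 1 from 45550543 to 45570049 on the forward strand. It had 1091 and 2268 counts in MIA PaCa-2 and 1341 and 2411 counts in PANC-1 without and with CBC. Its levels were 49.1 and 91.7 CPM in MIA PaCa-2 and 59.0 and 88.2 CPM in PANC-1, so both CBC libraries lay above both controls. The log2 fold changes were 0.90 in MIA PaCa-2 (counting interval 0.80 to 1.01) and 0.58 in PANC-1 (0.48 to 0.68), with neither past the threshold of 1. Across both lines the log2 fold change was 0.75 (standard error 0.22) with an adjusted p of 0.105 (edgeR). DESeq2 gave an adjusted p of 0.0476, so the call for AKR1A1 depended on the tool.

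AKR1B1 encodes aldose reductase, the first enzyme of the polyol pathway, which turns glucose into sorbitol. The gene (ENSG00000085662) lies on chromosome 7 from 134442356 to 134459284 on the reverse strand. It had 699 and 1372 counts in MIA PaCa-2 and 1595 and 2268 in PANC-1 without and with CBC. Its levels were 31.4 and 55.5 CPM in MIA PaCa-2 and 70.1 and 83.0 CPM in PANC-1. Both PANC-1 libraries lay above both MIA PaCa-2 libraries, and within each line the CBC library was the higher. The log2 fold changes were 0.82 (counting interval 0.69 to 0.95) and 0.24 (0.15 to 0.34), with an adjusted p of 0.259 across both lines. The processed pseudogene AKR1B1P1, which shares no 100-base window with the AKR1B1 transcript, had 7 and 30 counts in MIA PaCa-2 and 4 and 1 in PANC-1.

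AKR1B10 encodes a close relative of aldose reductase that reduces retinal and other aldehydes. The gene (ENSG00000198074) lies on chromosome 7 from 134527567 to 134541412 on the forward strand. It had 0 counts in both MIA PaCa-2 libraries, 6 counts in control PANC-1 and 19 with CBC. It stayed below 1 CPM in every library and was not tested. The count ratio of 2.63 in PANC-1 had an interval from 1.01 to 8.06.

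Of the 5 genes that passed the filter of 1 CPM in MIA PaCa-2, 2 were past a log2 fold change of 1, OSGIN1 and AKR1C1, both higher. Among all tested genes, 11.5% were higher and 8.97% lower by that rule. In PANC-1 3 genes passed the filter and OSGIN1 alone was past the threshold, where 7.71% of all tested genes were higher and 7.03% lower. The median log2 fold change of the genes that passed was 0.96 in MIA PaCa-2 and 0.58 in PANC-1, beside -0.01 and 0.02 over all tested genes. In the test across both lines, 5 of the 7 genes passed edgeR's filter and 2 were called higher, OSGIN1 and AKR1C1, with 3 at an unadjusted p under 0.05 and 3 called by DESeq2. Over all 16381 genes, the edgeR test called 2.26% higher and 2.45% lower. The shares of all genes at an unadjusted p under 0.05 or called by DESeq2 were not counted, here or for the lists below. For AKR1A1 and AKR1B1 the change was smaller in PANC-1 than in MIA PaCa-2, by 0.32 (counting interval of the difference -0.46 to -0.18, PANC-1 minus MIA PaCa-2) and by 0.58 (-0.74 to -0.42) on the log2 scale, and the opposite order held for OSGIN1. These orders were not tested across cultures, and line and dose cannot be told apart in them.

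**Figure D3:**
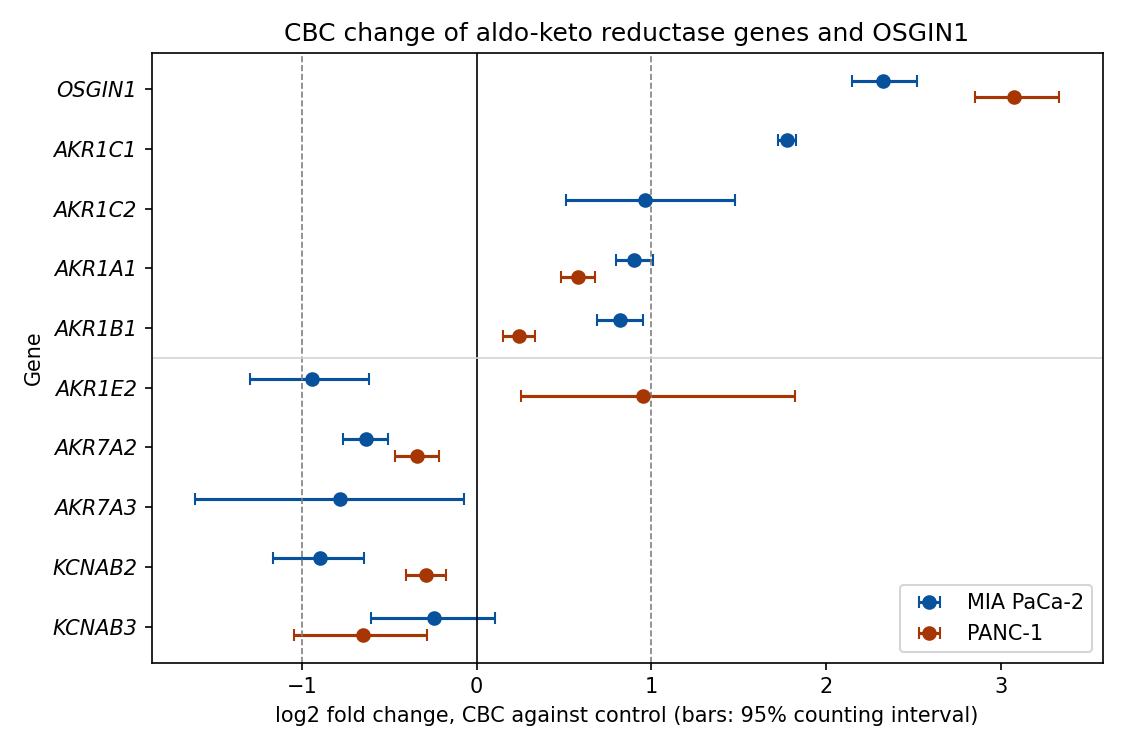
Log2 fold change of CBC against control in each line (x axis) for genes (y axis) at 1 CPM or more in at least 1 of the 2 libraries of that line. The members are above the grey line and other aldo-keto reductases below it. Bars are 95% counting intervals from the exact binomial distribution, dashed lines are the threshold of 1, and OSGIN1 in both lines and AKR1C1 in MIA PaCa-2 lie past it.

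The lines differed at baseline most in the AKR1C genes. Against the MIA PaCa-2 control, the PANC-1 control held at least 1269-fold less AKR1C1, at least 18.4-fold less AKR1C2 and at least 4.43-fold less AKR1C3, with the limit of 3 counts in place of the 0 counts of PANC-1. These limits leave out the counting error of the MIA PaCa-2 counts. The exact counting intervals of the log2 ratio, PANC-1 to MIA PaCa-2, reached up to -10.01 for AKR1C1, -3.85 for AKR1C2 and -1.64 for AKR1C3. AKR1B1 was 2.23-fold higher in the PANC-1 control, with a counting interval from 2.04 to 2.44. AKR1A1 was 1.20-fold higher there (1.11 to 1.30), a log2 difference of 0.27 that was 0.13 with library totals in place of TMM. OSGIN1 was 1.83-fold lower, with log2 bounds of the PANC-1 to MIA PaCa-2 count ratio from -1.16 to -0.58. The 6 counts of AKR1B10 in the PANC-1 control, against 0, put its level at least 1.96-fold higher by the same limit, while the exact counting interval of the log2 ratio began at 0.20. Of the 5 genes tested at baseline, AKR1B1 was higher in PANC-1 and AKR1C1 and AKR1C2 were lower past a log2 difference of 1. AKR1C1 and AKR1C2 passed the filter through the MIA PaCa-2 control alone, at 167 and 2.43 CPM. A gene with 0 counts in PANC-1 can pass only by being lower there, so the filter partly sets this count. Among all genes tested at baseline, 24.0% were higher in PANC-1 and 18.0% lower.

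The only test of the lines that the design allows uses all 4 libraries with the treatment as a block. It called AKR1B1 higher in PANC-1 (log2 difference 0.81, standard error 0.24, adjusted p = 0.0277, edgeR). It called AKR1C1 (adjusted p = 5.74e-06) and AKR1C2 (adjusted p = 0.000723) lower. Over all genes in this test, 25.1% were called higher in PANC-1 and 21.7% lower. For OSGIN1 the log2 difference was -0.53 (adjusted p = 0.144) and for AKR1A1 0.04 (adjusted p = 0.885), so neither passed the test.

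Between genes, levels were compared per length of exon sequence. In the MIA PaCa-2 control AKR1C1 stood at 19.1 CPM per kb, AKR1A1 at 15.7, AKR1B1 at 8.60, OSGIN1 at 2.30, AKR1C2 at 0.399 and AKR1C3 at 0.149. After CBC treatment the order at the top was AKR1C1 at 65.4 CPM per kb, AKR1A1 at 29.4, AKR1B1 at 15.2 and OSGIN1 at 11.6. In the PANC-1 control AKR1B1 at 19.2 and AKR1A1 at 18.9 CPM per kb were close, OSGIN1 stood at 1.26 and AKR1B10 at 0.149. After CBC treatment AKR1A1 was at 28.3, AKR1B1 at 22.7 and OSGIN1 at 10.7 CPM per kb. With 1 library per condition, no spread over samples is known for neighbours in these orders. Exon lengths are from GENCODE 44, another release than the counting used, and per kb of coding sequence AKR1C1 in the MIA PaCa-2 control was at 173 CPM and AKR1A1 at 50.3.

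The nearest profiles over the 4 libraries were sought among 10050 genes averaging 10 CPM or more, by the root mean square difference of log2 levels centred on each gene's mean. For OSGIN1 the nearest was AKNA, at 0.142, with 221 and 1594 counts in MIA PaCa-2 and 126 and 1401 in PANC-1, followed at 0.302 by ENSG00000278948. For AKR1A1 the nearest were PICK1 at 0.0195 and MTF1 at 0.0223, and for AKR1B1 they were MIDN at 0.0345 and CCNYL1 at 0.0346. For AKR1C1 TP63 at 0.671 and SLC17A9 at 0.699 came first. With 0 and 4 counts of AKR1C1 in PANC-1, these distances depend on the 0.1 CPM added before the log. They cannot be set beside those of genes counted in both lines. These are descriptions over 4 libraries.

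None of the other aldo-keto reductases tested was past the threshold in either line. Of 11 further genes of the superfamily 9 had counts, and 0 of the 5 tested in MIA PaCa-2 and 0 of the 4 tested in PANC-1 were past the threshold. Their median log2 fold change was -0.78 in MIA PaCa-2 and -0.32 in PANC-1. Among all tested genes, 11.5% were higher and 8.97% lower in MIA PaCa-2, and 7.71% and 7.03% in PANC-1. With so few genes, 0 past the threshold does not set this list apart from all genes. Across both lines edgeR's quasi-likelihood test called 0 of 6, with 0 at an unadjusted p under 0.05 and 0 called by DESeq2. Over all genes, the edgeR test called 2.26% higher and 2.45% lower. AKR7A2, an aldehyde reductase of the AKR7 branch, had 1226 and 877 counts in MIA PaCa-2 and 1082 and 1026 in PANC-1, with log2 fold changes of -0.64 and -0.34. KCNAB2, a beta subunit of voltage-gated potassium channels, had log2 fold changes of -0.90 and -0.29 in the same lines, and KCNAB3 of the same branch had -0.25 and -0.65. AKR7A3 had 40 and 25 counts in MIA PaCa-2, a log2 fold change of -0.78, and AKR7L had at most 20 counts in any library. AKR1E2 had 202 and 116 counts without and with CBC in MIA PaCa-2, against 21 and 51 in PANC-1. Its count ratio in PANC-1 was 2.02, while the log2 fold change, computed with a prior count of 2, was 0.95. AKR1B15, AKR1C4 and KCNAB1 had at most 2 counts in any library, and AKR1C8 and AKR1D1 had 0 in all 4. KCNAB2 overlaps NPHP4 on the other strand and whether HTSeq used strand is not given in the sources used here, so its counts are uncertain.

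Of 39 NRF2 targets outside the family, 34 were tested in each line. In MIA PaCa-2, 8 were higher and 1 lower past the threshold, beside 11.5% and 8.97% of all tested genes. In PANC-1, 11 were higher and 0 lower, beside 7.71% and 7.03%. The median log2 fold change of the list was 0.32 in MIA PaCa-2 and 0.50 in PANC-1. The test across both lines called 9 of 36, all 9 higher, beside 2.26% of all genes called higher and 2.45% lower. The largest mean changes were in HMOX1, which degrades heme, with log2 fold changes of 5.24 and 4.72, in SQSTM1, an autophagy receptor, with 3.0 and 1.99, and in the cystine transporter gene SLC7A11, with 1.78 and 2.62. These 3 genes passed the test across both lines, with adjusted p of 0.000761, 0.00657 and 0.00865 in that order. The transketolase gene TKT, with -0.15 and -0.60, and the glutathione transferase gene GSTM3, with -0.73 and -0.43, were at the lower end and did not pass the test. The log2 fold change of OSGIN1 was smaller than that of HMOX1 in both lines, as the plot of both lines shows.

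**Figure D4:**
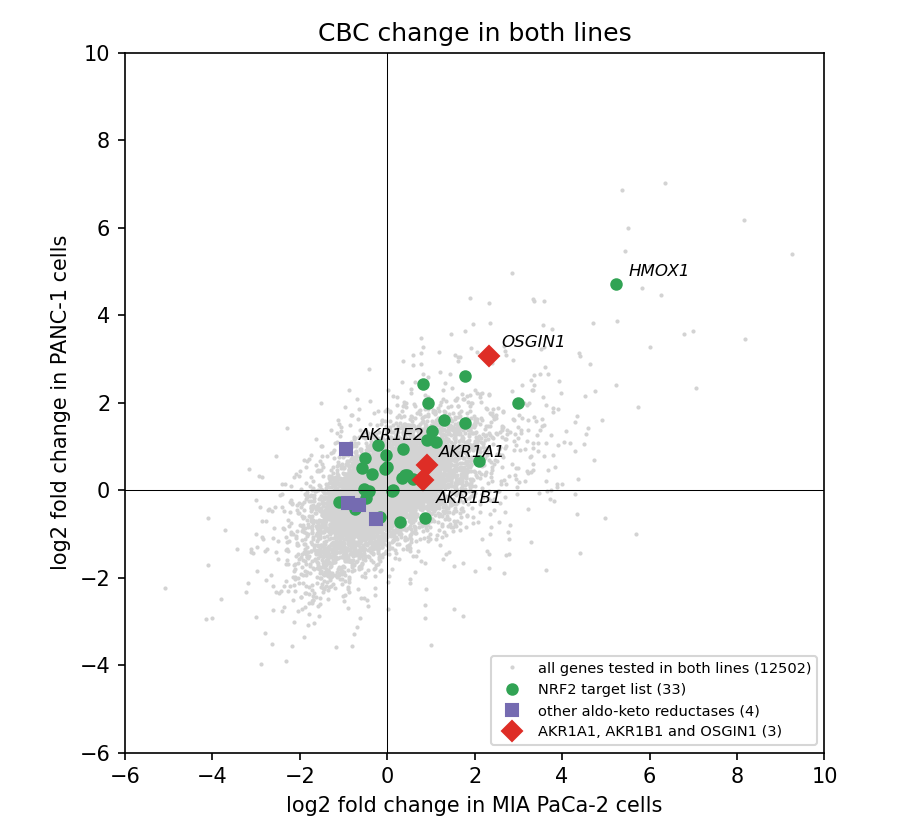
Log2 fold change of CBC against control in MIA PaCa-2 (x axis) and in PANC-1 (y axis) for the 12502 genes tested in both lines in grey, with 33 NRF2 targets in green, 4 other aldo-keto reductases in purple and AKR1A1, AKR1B1 and OSGIN1 as red diamonds. The 3 red genes are above 0 in both lines, OSGIN1 at 2.33 and 3.08, while AKR1E2 is below 0 in MIA PaCa-2 and above 0 in PANC-1.

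Other enzymes for carbonyl compounds were more often lower than higher past the threshold in MIA PaCa-2. Of 33 genes for carbonyl reduction and aldehyde oxidation, 28 were tested in MIA PaCa-2, with 1 higher and 6 lower, and 29 in PANC-1, with 3 higher and 2 lower. The medians were -0.50 and -0.02, and 4 genes are also in the list of NRF2 targets. Among all tested genes, 11.5% were higher and 8.97% lower in MIA PaCa-2, and 7.71% and 7.03% in PANC-1. Over all genes, 2.26% were called higher and 2.45% lower across both lines. The test across both lines called 1 of 31, the retinal reductase gene DHRS3, which fell (log2 fold changes -1.45 and -1.74, adjusted p = 0.0227, edgeR). DHRS7 had log2 fold changes of 1.45 and 0.61. NQO2 had -0.18 and 1.33, and NQO1, the quinone reductase long used as a marker of NRF2 activity, had -0.03 and 0.81, with 10205 and 11129 counts in MIA PaCa-2 and 3294 and 6934 in PANC-1. The mitochondrial aldehyde dehydrogenase gene ALDH1B1 had -0.76 and -0.77. None of these 4 genes passed the test across both lines.

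Of 30 genes for steroid and prostaglandin enzymes, 15 were tested in MIA PaCa-2, with 0 higher and 3 lower, and 14 in PANC-1, with 0 higher and 1 lower. The medians were -0.11 and -0.28. Among all tested genes, 11.5% were higher and 8.97% lower in MIA PaCa-2, and 7.71% and 7.03% in PANC-1. Over all genes, 2.26% were called higher and 2.45% lower across both lines. The test across both lines called 1 of 17, HSD17B7, a reductase of estrogen and cholesterol synthesis, which fell (log2 fold changes -1.59 and -1.36, adjusted p = 0.0243, edgeR). HSD3B7 had log2 fold changes of 0.13 and 0.81, SRD5A3 of 0.04 and 0.18, HSD17B12 of -0.11 and 0.17 and HSD17B11 of -0.95 and -0.26, and these 4 did not pass.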

How the data were processed

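The authors sequenced mRNA as paired-end 100-base reads. Trimming used cutadapt 2.7, alignment to GRCh38 used STAR and counting per gene used HTSeq with Ensembl release 89. How HTSeq treated strand and ambiguous reads is not given in the sources used here. The deposited counts per gene are raw. The authors also deposited a normalised signal per library, CPM on TMM-scaled library sizes from edgeR.

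Symbols matched 57392 of 58233 identifiers. Positions and lengths came from GENCODE 44 (GRCh38). edgeR 4.0.16 (R 4.3.3) computed log2 fold changes after TMM scaling of all 4 libraries together, with a prior count of 2, and they were called past 1 in either direction for genes at 1 CPM or more in 1 of the 2 libraries compared. Intervals at 95% are Clopper-Pearson (scipy 1.17.1), and those of differences between lines use a normal approximation. Intervals of fold changes and of their differences are for count ratios without the prior count. For CBC across the lines, a quasi-likelihood model in edgeR held line as a block and treatment as a term, which leaves 1 residual degree of freedom, with Benjamini-Hochberg adjustment over the 16381 genes kept by edgeR's filter. The line term came from the same fit. Libraries were paired by cell line. The differences between the lines were alike in the control and the CBC libraries (correlation 0.922 across genes). This restates that the lines differ under both treatments and is no separate support for the block. The p-values rest on single cultures.

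The genes and lists were chosen with earlier results of these data known. The lists were written from general knowledge. From each list outside the family the 3 highest and 2 lowest mean changes at a mean of 10 CPM or more are named. The nearest profiles used log2 of CPM plus 0.1. Alternatives changed the scaling, prior count, filter, values, tool (DESeq2 1.42.0) and block, or summed the AKR1C counts.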

Additional observations from a re-analysis of the deposited data

Results flagged for a closer look

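AKR1E2, which encodes a reductase of 1,5-anhydrofructose, was lower in the CBC library of MIA PaCa-2 cells and higher in that of PANC-1 cells. Its log2 fold change was -0.94 in MIA PaCa-2 cells, with a counting interval from -1.30 to -0.62, and 0.95 in PANC-1 cells, with an interval from 0.26 to 1.82. The difference between the lines was 1.90 on the log2 scale. From the count ratios, without the prior count, it was 1.97, with a counting interval from 1.16 to 2.77, and it was not tested across cultures. The PANC-1 value rests on 21 and 51 counts. In PANC-1 the gene passed the filter of 1 CPM through the CBC library alone, at 1.87 CPM, with the control at 0.924 CPM. The filter thus favoured a higher value with CBC there. The lines also had different doses of CBC, so line and dose cannot be told apart in this difference.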

How the results depend on the processing

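With 1 library per condition no replicate could be left out, and depth limits AKR1B10 and AKR1C3, which stay below 1 CPM. Without the filter, 1 gene was called lower in MIA PaCa-2 cells (AKR1C3), 3 were called higher in PANC-1 cells and 2 higher at baseline, and 5 were called between the lines without a filter beyond 1 count. The 3 in PANC-1 cells included AKR1C1, at 0 and 4 counts, too few for a direction, and AKR1B10, at 6 and 19. Without the filter of 1 CPM, 2 other aldo-keto reductases were lower in PANC-1 cells, 3 carbonyl genes were higher in MIA PaCa-2 cells and 1 steroid and prostaglandin gene was higher in PANC-1 cells. The shares of all genes called under these and the other alternative settings were not counted, so these counts have no background beside them. With library totals in place of TMM, 1 other aldo-keto reductase was higher in PANC-1 cells and 1 steroid and prostaglandin gene was higher in MIA PaCa-2 cells, and the difference of AKR1A1 between the lines turned to -0.0261. Without the replicate block for cell line, the test of CBC called 0 of the 5 genes, with 1 at an unadjusted p under 0.05 (adjusted p = 0.999952 for OSGIN1 and AKR1C1 in edgeR, with log2 fold changes of 2.65 and 1.80), since the difference between the lines then enters the error, and the AKR1A1 line difference was -3.5e-05. A further 114 counts recomputed under an alternative stayed within 1.5 times their value. For AKR1A1 the adjusted p ranged from 0.0441 (no filter) to 0.999952 (no block), for OSGIN1 from 7.11e-17 and for AKR1C1 from 2.40e-07 to that same value. Settings for the other aldo-keto reductases' values and for the steroid and prostaglandin genes were added after seeing the data. Library totals also moved the baseline differences of AKR1B1 from 1.16 to 1.02 and of AKR1A1 from 0.27 to 0.13, and with AKR1C2 at 1.03 they raised the genes called higher in MIA PaCa-2 cells from 2 to 3. Without the block AKR1B1 no longer passed between the lines (adjusted p = 0.172).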
